A study of Homo sapiens with 346 samples.

Results

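Methanol-fixed cells labelled HepG2 were compared with methanol-fixed HCT-116 cells to see which genes that separate the lines in live cells still separated them after fixation. The comparison held 82 fixed HepG2-labelled cells and 92 fixed HCT-116 cells, of 334 cells with a column in the expression tables. Its members are the fixed columns of each line's table. The exception was 1 fixed HepG2 column that held the same value as a live column in every gene, and both columns were left out. Live cells of the same lines, 67 labelled HepG2 and 91 HCT-116, gave the same difference without fixation.

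HCT-116 is a line from a colorectal carcinoma and HepG2 one from a hepatocellular carcinoma. Both were grown in DMEM with fetal bovine serum and antibiotics, and neither was engineered for this study. Fixed cells were placed in 80% methanol and kept frozen for 1 week, and live cells skipped both steps. Per the study's methods live cells were processed at once, while fixed cells were rehydrated, sorted and made into libraries after that week. The methods describe a dye stain before sorting for live cells only. A change from live to fixed therefore cannot be told apart from a difference between days or steps of preparation. All were sorted as single cells and sequenced by Smart-seq2, which copies whole polyadenylated transcripts. Per the study's methods the HepG2 work was run in 2 separate replicates and the HCT-116 work once. Neither the labels nor the columns say which HepG2 cell belongs to which replicate, so the HepG2 groups pool both and each line under each treatment is handled as 1 sample. Cells are not replicates of a line, so no test was made, and every SD below is a spread over cells that for HepG2-labelled cells can include a difference between the replicates. Whether libraries of the 2 lines were made together is not stated. A difference between lines therefore cannot be told apart from a possible difference between library batches. Levels were scaled within each cell, and each line has its own table with its own gene list. Whether the tables were otherwise processed together is not stated, and this holds for each level set across lines below.

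As background, epithelial lines differ through a small set of lineage transcription factors and the many products under them. In luminal breast epithelium, GATA3, FOXA1 and the estrogen receptor (ESR1) drive secreted and membrane proteins such as the trefoil and anterior gradient proteins. Intestinal epithelium uses CDX2, and hepatocytes make plasma proteins such as albumin, apolipoproteins and fibrinogen. Methanol takes water out of the cell and precipitates its proteins, and the RNA held in place is read after rehydration.

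Levels are TPM, the transcript share of a cell scaled to a fixed sum, which corrects reads for transcript length. The line difference is log2 of the mean TPM plus 1 in HepG2-labelled cells over the mean TPM plus 1 in HCT-116 cells, so positive values mean higher in HepG2-labelled cells. Of 26894 genes listed in both tables, 8999 with a mean of at least 5 TPM in at least 1 of the 4 groups were carried through. A gene was counted as a line gene where the lines differed 4-fold or more.

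The profile of the cells labelled HepG2 did not match hepatocytes. Of 18 hepatocyte genes, 11 were listed in the HepG2 table and 0 reached a mean of 5 TPM in any group. The highest was SERPINA1, which encodes the alpha-1 antitrypsin of plasma, at a mean of 3.9998 TPM in fixed HepG2-labelled cells. The sums of lists given here cover only members listed in both tables. These were 8 of the 18 hepatocyte genes and 19 of 24 luminal breast genes, without TFF1, which the HepG2 table alone lists. The hepatocyte members summed to a median of 0.274 TPM per fixed HepG2-labelled cell, with a range of 0 to 89.7 TPM. In the same cells the members of the luminal breast list summed to a median of 1489 TPM, with a range of 542 to 4851 TPM. In fixed HCT-116 cells the range was 38.1 to 260.0 TPM. Lists of blood cells, endothelium and fibroblasts were low in both lines. Summed medians over fixed HepG2-labelled and HCT-116 cells were 9.6e-05 and 4.12 TPM for blood cells, 0.53 and 0.10 TPM for endothelium and 0 in both lines for fibroblasts. The list of squamous and basal epithelium summed to higher medians, 15.6 and 15.4 TPM, which were alike in the lines. Among blood genes CD68, a lysosomal protein of macrophages, was the 1 carried through, at 0.22 TPM in fixed HepG2-labelled and 7.21 TPM in fixed HCT-116 cells. The label is therefore used below only as a name.

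Depth differed between the lines. Total reads, in units of 1e6, had a median of 2 in fixed HepG2-labelled cells (range 1 to 2.8) and 1.8 in fixed HCT-116 cells (range 0.2 to 4.9). Genes with any TPM numbered 11975 ± 1619 and 10434 ± 1318 (SD over cells). Ribosomal RNA took a median of 2.40% and 7.60% of TPM in fixed cells, and 5.75% and 24.6% in live cells. Another 6 fixed HepG2-labelled columns resembled each other more than any other columns did (Pearson r of 0.957 to 0.974) and held 13231 to 16282 genes each, where the other fixed HepG2-labelled cells had at most 14059. Without them, the counts of line genes are given below, each remaining fixed cell was still nearest to its own line, and the list members past 4-fold numbered 35 and 30, as with them.

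In fixed cells 575 genes were 4-fold or more higher in HepG2-labelled cells, which is 6.39% of the genes carried through. In the other direction 511 genes, or 5.68%, were higher in HCT-116 cells. Together these were 12.1% of the genes. In live cells the counts were 560 (6.22%) and 524 (5.82%), or 12% together. Without the 6 similar columns the counts in fixed cells were 577 and 512. The median difference over all genes was 0.03 in both treatments.

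Of the 1084 line genes of live cells, 854 (78.8%) were still 4-fold or more apart in the same direction after fixation, and 855 were without the 6 similar columns. Another 193 had narrowed to between 2-fold and 4-fold, 31 were lost, meaning under 2-fold either way, and 6 had turned 2-fold or more the other way. The 6 that turned were all small or ribosomal RNA names, and so were 15 of the 31 that were lost. When the order was exchanged, 854 of the 1086 line genes of fixed cells (78.6%) were apart in live cells. Both shares count the same 854 genes over nearly equal totals, so the exchange is not a separate check of how genes were chosen. Across the 8999 genes the live and fixed differences had a Pearson r of 0.933 and a Spearman coefficient of 0.910. These points share cell line, table and gene length, and genes are not independent replicates.

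**Figure D1:**
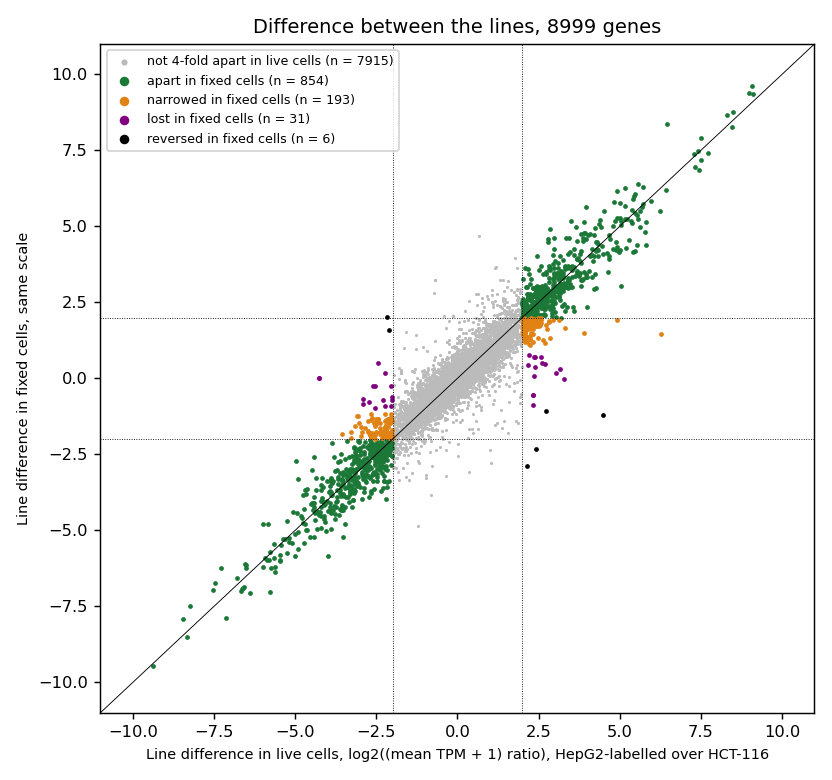
Line difference in fixed cells (vertical axis) against live cells (horizontal axis), both log2 of the ratio of mean TPM plus 1, for 8999 genes, with dotted lines at 4-fold and a solid line where both are equal. The 854 green genes stayed 4-fold apart, 193 orange genes narrowed, 31 purple genes were lost and 6 black genes turned the other way.

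The share that stayed is partly set by the 4-fold limit, since a gene far past it in live cells can narrow a good deal and still count as apart. Among 619 genes 4- to 8-fold apart in live cells, 65.8% stayed 4-fold apart. From 8- to 16-fold the share was 95.1% of 264 genes, and from 16- to 64-fold it was 97.6%. Of the 34 genes 64-fold or more apart, 33 stayed (97.1%). The median change of the difference in these bins was, in the same order, -0.10, -0.11, -0.04 and -0.07 (log2). The share varied less with level and ran from 75.2% of genes under 10 TPM in the higher line to 83.6% of genes at 100 TPM or more. In the 230 genes that did not stay apart, the median change from live to fixed was -0.58 (log2) in the higher line and 0.14 in the lower line. The higher line was 2-fold or more lower in fixed cells for 73 of these genes, and the lower line 2-fold or more higher for 21.

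Single fixed cells kept their line as well. Each of the 82 fixed HepG2-labelled cells had its highest Pearson correlation of ln(TPM + 1) with another fixed cell of its own line (exact 95% interval 95.6% to 100%, counting error only), and so did each of the 92 fixed HCT-116 cells (96.1% to 100%). The gap to the best cell of the other line was at least 0.070 and 0.039. Averaged over the 560 genes higher in live HepG2-labelled cells, log2(TPM + 1) was 3.06 to 4.44 in fixed HepG2-labelled cells (median 3.896) and 0.79 to 1.67 in fixed HCT-116 cells (median 1.07). Over the 524 genes higher in live HCT-116 cells, it was 0.77 to 1.55 (median 1.12) and 2.90 to 4.93 (median 3.94). The lines did not overlap on either axis.

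**Figure D2:**
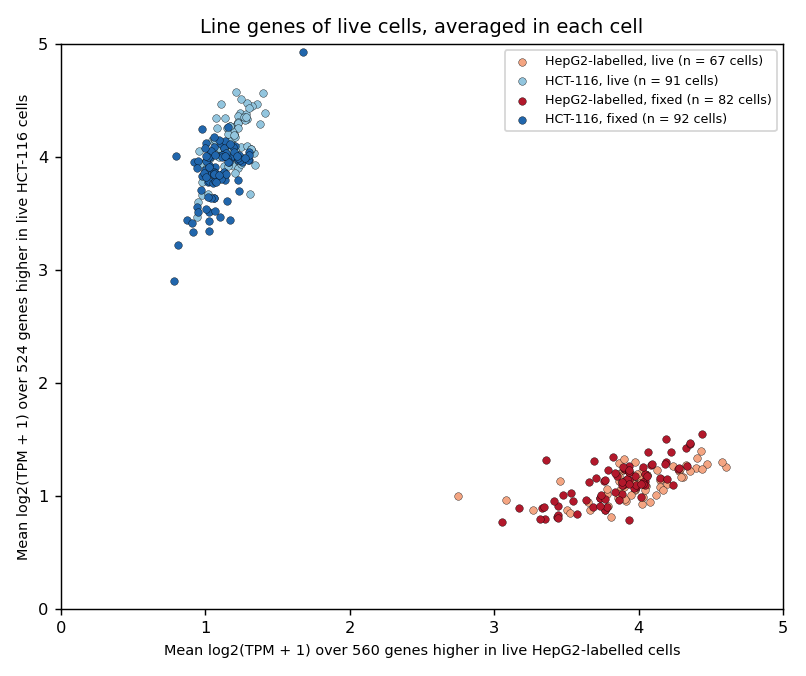
Mean log2(TPM + 1) in each cell over the 560 genes higher in live HepG2-labelled cells (horizontal axis) and the 524 genes higher in live HCT-116 cells (vertical axis). Fixed cells (dark points, 82 and 92) lie in the same 2 clouds as live cells (light points, 67 and 91), and no fixed cell lies between them.

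GATA3, a zinc finger factor of luminal epithelium, ranged from 68.4 to 609 TPM over fixed HepG2-labelled cells with a median of 224. In fixed HCT-116 cells its median was 0 and its highest cell 10.6 TPM, so the lines did not overlap in any cell. The mean was 236 ± 98.005 TPM (SD, 82 cells) against 0.32 ± 1.38 (92 cells), a difference of 7.49 in fixed cells and 7.42 in live cells.

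ESR1, the estrogen receptor, ranged from 3.55 to 96.4 TPM in fixed HepG2-labelled cells with a median of 24.8. In fixed HCT-116 cells the range was 0 to 3.32 TPM, and every HepG2-labelled cell again lay above every HCT-116 cell. Its mean of 27.4 ± 16.1 TPM stood beside 48.4 ± 22.1 in live HepG2-labelled cells, and the line difference was 4.03 in fixed and 4.68 in live cells. XBP1, a factor of the secretory pathway, had 16.2 to 1307 TPM (median 309) against 0 to 131.4 TPM (median 17.2), and the lines overlapped in their tails. Its difference was larger in fixed cells, at 4.10, than in live cells, at 3.41.

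The 10 largest differences on the HepG2 side included GATA3 and the following genes. LXN, an inhibitor of carboxypeptidases, ranged from 12.3 to 3402 TPM (median 711) in fixed HepG2-labelled cells and reached 8.63 TPM in its highest fixed HCT-116 cell. AGR2, a disulfide isomerase of the endoplasmic reticulum, ranged from 0 to 3504 TPM (median 449) and was listed at 0 in all 92 fixed HCT-116 cells, so no fold is given. S100P, a calcium-binding protein, ranged from 45.6 to 4656 TPM (median 762.01) against 0 to 32.5 TPM. UPK2, a membrane protein of urothelium, ranged from 0 to 2733 TPM (median 174.2) and had at most 0.57 TPM in a fixed HCT-116 cell. Its mean was 329 ± 444 TPM in fixed HepG2-labelled cells and 99.6 ± 132.8 in live ones.

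The others were FBP1, SPTSSB, KYNU, GSTM3 and DSCAM-AS1. FBP1, an enzyme of gluconeogenesis, had 117.99 to 1047 TPM (median 437) against at most 3.44 TPM in fixed HCT-116 cells. SPTSSB, a subunit of serine palmitoyltransferase, had 20.01 to 4108 TPM (median 900) against 0 to 41.1 TPM. KYNU, the kynureninase of tryptophan breakdown, had 0 to 591 TPM (median 198) against 0 to 17.9 TPM. GSTM3, a glutathione transferase, had 43.8 to 463 TPM (median 177.6) against 0 to 1.74 TPM. The noncoding DSCAM-AS1 had 11.2 to 1196 TPM (median 456) against 0 to 1.30 TPM. For each of FBP1, GSTM3 and DSCAM-AS1 the fixed cells of the lines did not overlap.

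The 10 largest differences on the HCT-116 side began with MT1E, GPX1, LDHB and PSAT1. MT1E, a metal-binding metallothionein, had 133.7 to 1947 TPM (median 659) in fixed HCT-116 cells and was listed at 0 in all 82 fixed HepG2-labelled cells. Metallothioneins are near-identical copies, so the split of reads among them is uncertain. GPX1, a glutathione peroxidase, had 34.9 to 823 TPM (median 372) against at most 1.97 TPM in a fixed HepG2-labelled cell, a difference of -8.51 in fixed and -8.33 in live cells. LDHB, a subunit of lactate dehydrogenase, had 546 to 2739 TPM (median 1620) against 0 to 110 TPM. PSAT1, an enzyme of serine synthesis, had 2.82 to 688 TPM (median 178.6) against at most 0.21 TPM. No fixed cell of 1 line overlapped the other for GPX1, LDHB or PSAT1.

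The other 6 were S100A4, TPM2, CNN3, AKAP12, SERPINE2 and MAGEA3. S100A4, a calcium-binding protein of motile cells, had 226 to 7352 TPM (median 1678), against a median of 0 and a highest cell of 281 TPM in fixed HepG2-labelled cells. Its mean of 10.7 ± 32.3 TPM on that side stood beside a median of 0. TPM2 (beta-tropomyosin) had 63.95 to 470 TPM against at most 7.42, and CNN3 (calponin 3) had 10.3 to 355 TPM against at most 0.48. AKAP12, a scaffold for protein kinase A, had 13.3 to 761.7 TPM against at most 1.93. SERPINE2, a secreted protease inhibitor, had 0 to 2568 TPM (median 106.2) against 0 to 8.73. Its mean in fixed HCT-116 cells, 201 ± 343 TPM, stood beside 90.6 ± 65.04 in live ones. MAGEA3, a cancer-testis antigen with near-identical copies, had 16.7 to 1009 TPM and was listed at 0 in all fixed HepG2-labelled cells.

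**Figure D3:**
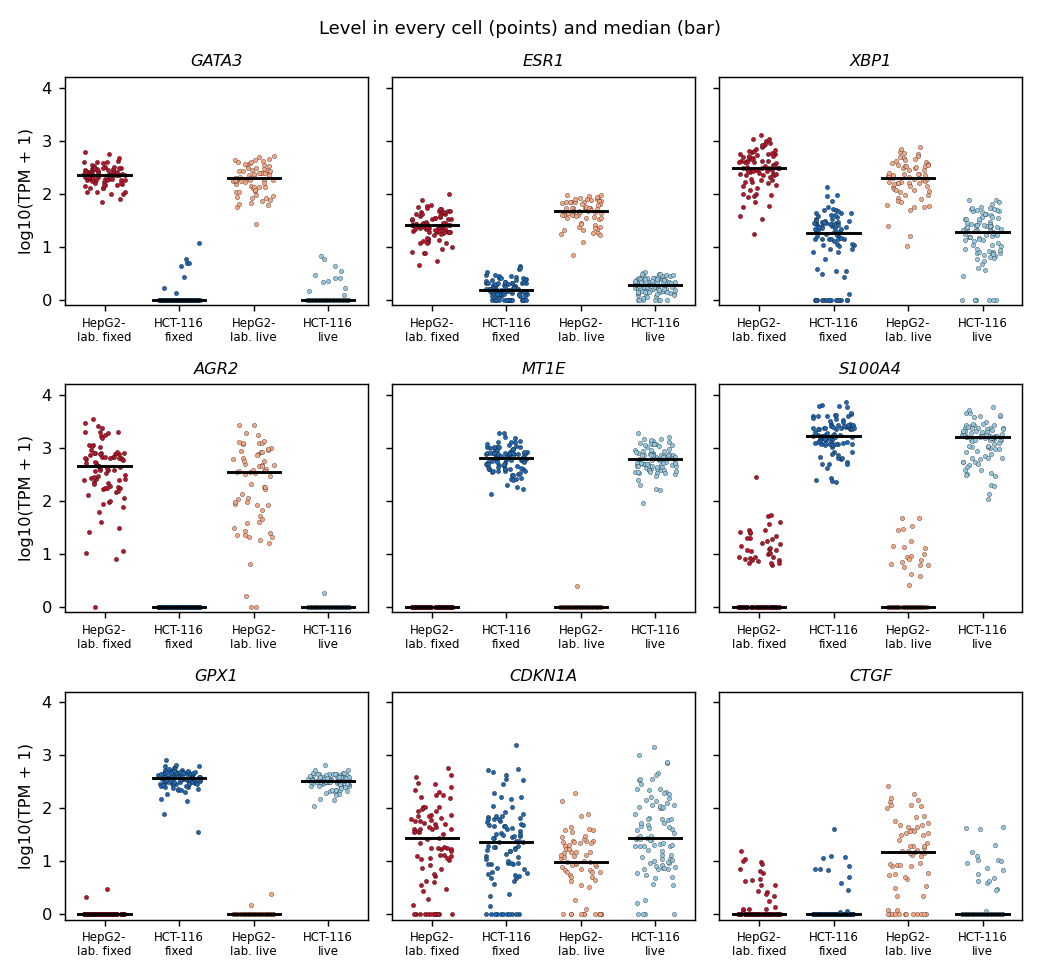
Log10 of TPM plus 1 in every cell (points) with the median (bar) for 9 genes in fixed and live cells of both lines. GATA3, ESR1, MT1E and GPX1 separate the fixed lines without overlap, while CDKN1A and CTGF, which differ between the live lines, lie together in fixed cells.

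Promoters are shown for 4 of the genes with the largest fixed differences, since the genes of a side are expressed together. AGR2 and GSTM3 held the most motif matches on the HepG2 side, and GPX1 and CNN3 were the 2 with a match on the HCT-116 side. The window runs from 250 bases before to 50 after the gene start in RefSeq (GRCh38.p14), and 19 of 22 genes looked up had an entry. Motifs were searched on both strands. The AP-2 motif GCCNNNGGC was found in 23.04% of all 27305 promoters. The CDX motif TTTATG was found in 10.97% of them. The GATA motif AGATAA was found in 10.5%. The estrogen response element was found in 0.0659% of them and in 0 of the 19. Capitals mark matches on either strand. AGR2 lies at chr7:16804950-16805249 and GSTM3 at chr1:109740989-109741288, both on the minus strand, and both hold the GATA and the CDX motif (the latter read as CATAAA on this strand).
AGR2: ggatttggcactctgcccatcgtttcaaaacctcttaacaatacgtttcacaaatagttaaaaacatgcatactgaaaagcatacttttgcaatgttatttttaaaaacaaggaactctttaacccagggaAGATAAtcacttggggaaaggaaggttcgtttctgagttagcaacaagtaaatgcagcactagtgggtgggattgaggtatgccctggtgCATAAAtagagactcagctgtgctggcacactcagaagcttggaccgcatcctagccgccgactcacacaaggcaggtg
GSTM3: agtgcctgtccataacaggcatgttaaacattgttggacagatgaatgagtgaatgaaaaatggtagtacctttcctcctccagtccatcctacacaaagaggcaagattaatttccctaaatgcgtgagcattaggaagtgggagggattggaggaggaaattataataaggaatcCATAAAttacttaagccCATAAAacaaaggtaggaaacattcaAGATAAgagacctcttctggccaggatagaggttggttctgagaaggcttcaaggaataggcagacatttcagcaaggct
GPX1 lies at chr3:49358304-49358603 and CNN3 at chr1:94927061-94927360, also on the minus strand, and each holds the AP-2 motif.
GPX1: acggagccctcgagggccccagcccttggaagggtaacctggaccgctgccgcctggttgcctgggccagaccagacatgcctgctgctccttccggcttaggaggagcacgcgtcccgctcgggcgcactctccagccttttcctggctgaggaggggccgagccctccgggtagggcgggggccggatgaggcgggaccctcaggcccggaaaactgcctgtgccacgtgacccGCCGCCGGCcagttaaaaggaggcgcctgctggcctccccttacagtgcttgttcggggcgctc
CNN3: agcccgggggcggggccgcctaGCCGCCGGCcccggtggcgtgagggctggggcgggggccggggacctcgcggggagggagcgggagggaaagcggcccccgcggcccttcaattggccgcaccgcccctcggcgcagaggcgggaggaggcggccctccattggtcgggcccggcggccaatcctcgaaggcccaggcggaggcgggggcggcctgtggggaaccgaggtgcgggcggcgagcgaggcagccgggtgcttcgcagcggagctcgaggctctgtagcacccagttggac
The CpG count of these windows was 6 for AGR2 and 1 for GSTM3, against 23 for GPX1 and 37 for CNN3. The 4 windows were picked by motif, so these counts do not describe the sides. FBP1 on the HepG2 side held 32, and S100A4 and SERPINE2 on the HCT-116 side held 8 each. Over promoters of the genes carried through, with small RNA left out, the median was 26. GATA3 and LXN each held the AP-2 motif as well, and the other 13 promoters, ESR1 and XBP1 among them, held none of the motifs. The promoters shown were thus picked for their matches. A match is a run of letters and not a measured binding site. The share of motifs among all line genes is not given, because under 80% of them had an entry.

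Groups of genes with a known role were read from 22 lists, chosen with earlier results of these data known. Of 12 luminal genes carried through, 9 (75%) were 4-fold or more higher in fixed HepG2-labelled cells and 0 in fixed HCT-116 cells. Over all genes 6.39% were higher in fixed HepG2-labelled cells. The median difference of the list was 4.05, against 0.03 over all genes. FOXA1, which opens chromatin for ESR1, had a mean of 15.9 TPM against 0.00 in fixed cells. TFAP2C (AP-2 gamma) had 67.4 against 1.21 TPM. CA12, a carbonic anhydrase, had 42.3 against 0.55 TPM. The exceptions were MLPH at 1.89, SLC39A6 at 1.13 and STC2 at 0.58, and MLPH had been 2.20 in live cells. Of 4 intestinal genes, CDX2 was higher in fixed HCT-116 cells (5.44 against 0.00 TPM), while CEACAM5 and REG4 were higher in HepG2-labelled cells. Together they made up 75% of this small list, against 12.1% of all genes. SOX9 leaned to HCT-116 cells (6.76 against 1.06 TPM), at -1.91 in fixed cells, under 4-fold, and -2.66 in live cells. REG4 was detected in only 42.7% of fixed HepG2-labelled cells, and the wide spread of CEACAM5 is given under other observations.

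Of 9 keratins, 4 were higher in HepG2-labelled and 1 in HCT-116 cells (55.6% together, against 12.1% of all genes). KRT8 and KRT18, the pair of simple epithelia, had 5823 ± 2705 against 1138 ± 550 TPM and 5700 ± 2396 against 1406 ± 734 TPM. KRT23 was higher in HCT-116 cells, at 15.8 against 0.05 TPM. Of 21 junction genes only CDH1 (E-cadherin; 68.6 against 6.44 TPM) and CLDN3 (136.4 against 11.8 TPM) were 4-fold apart, both higher in HepG2-labelled cells. That share of 9.52% lay under the 12.1% over all genes, and other members leaned the other way without passing 4-fold, among them CDH3 (-1.48), CTNNB1 (-1.13) and PKP2 (-1.03).

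S100 and annexin genes, which bind calcium, split both ways. Of 20 carried through, 3 were higher in HepG2-labelled and 7 in HCT-116 cells (50% together, against 12.1% of all genes). S100A6 had 3980 ± 1950 TPM in fixed HCT-116 and 233 ± 219 in fixed HepG2-labelled cells, and ANXA1 had 588 against 6.83 TPM. S100A11 went the other way, at 3779 ± 1762 against 631 ± 247 TPM, and crossed 4-fold in fixed cells (2.58) but not in live ones (1.83). Of 19 glutathione and detoxification genes, 5 were higher in HepG2-labelled and 4 in HCT-116 cells (47.4% together). GSTT1 and AKR1C3 were on the HepG2 side with GSTM3, and AKR1B1 and ALDH1A3 on the HCT-116 side with GPX1.

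Of 15 Wnt targets listed, 4 were carried through and 3 of these were higher in HCT-116 cells, against 5.68% of all genes. The other, CCND1, had a difference of 0.67. CD44, a hyaluronan receptor, had 51.6 to 857 TPM (median 221) against 0 to 29.8 TPM (median 5.75) and did not overlap. MYC had a median of 201 against 24.7 TPM and DKK1 of 899 against 138.1 TPM. Of 15 receptor tyrosine kinases, ERBB3, IGF1R and EPHA4 were higher in HepG2-labelled cells and EGFR, MET and FGFR4 in HCT-116 cells. Together they made up 40% of the list, against 12.1% of all genes. Of 19 immediate early genes 4 were higher in HCT-116 cells (21.1%, against 5.68% of all genes) and 0 in HepG2-labelled cells. FOSL1 and IER3 were higher in HCT-116 cells at differences of -5.50 and -4.24, as in live cells (-5.43 and -4.20). Of 17 cell cycle inhibitors and p53 targets, 2 were higher in HepG2-labelled and 1 in HCT-116 cells, the latter CDKN2A (p16) at 44.9 against 0.44 TPM. These are 17.6% of the list, against 12.1% of all genes.

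Of 79 cytosolic ribosomal protein genes, only RPL22L1 was 4-fold apart (188.6 TPM in fixed HCT-116 against 19.8 in fixed HepG2-labelled cells). None of 61 nuclear respiratory chain genes and none of 24 mitotic genes were. Of 24 genes of sterol and fatty acid synthesis 1 was (4.17%), LSS, at 2.15 in fixed and 1.91 in live cells. Of 26 cytoskeletal genes 5 (19.2%) were, against 12.1% of all genes, among them TPM1 (187.7 against 17.9 TPM), the counterpart of TPM2 with the opposite direction. Of 18 heat shock genes 3 were (16.7%). HSPA1A and HSPB8 were higher in HepG2-labelled cells and HSP90B1 in HCT-116 cells. Of 8 antigen presentation genes HLA-B alone passed (12.5%, near the share over all genes), at 28.3 TPM in HCT-116 against 4.71.

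**Figure D4:**
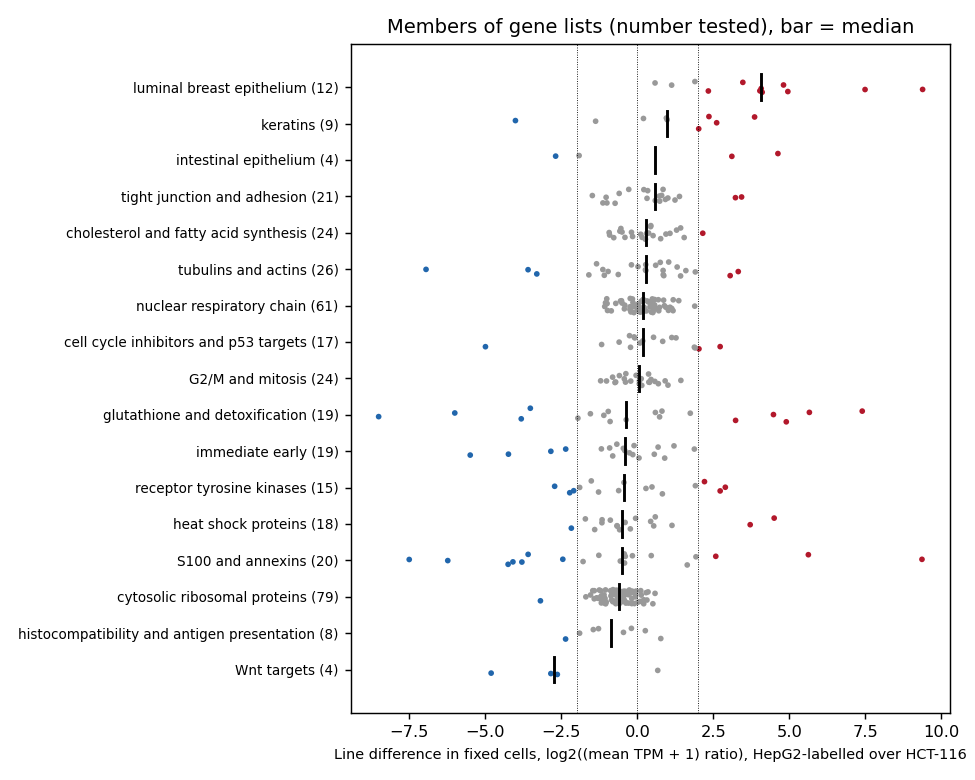
Line difference in fixed cells (horizontal axis, log2 of the ratio of mean TPM plus 1) for the members of each gene list with at least 4 genes carried through, with the median as a bar. Red points are 4-fold or more higher in HepG2-labelled cells and blue points in HCT-116 cells. Luminal genes lie to the right (9 of 12), while the 61 respiratory chain and 24 mitotic genes all lie inside the dotted lines at 4-fold.

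For 23 of the 31 genes whose difference was lost, the line that was higher alive was 2-fold or more lower when fixed. The same held for 44 of 193 narrowed and 36 of 854 apart genes. A loss requires the higher line to fall or the lower line to rise, so such falls are partly built into the class. Lost genes named here without a rule (RCAN1 and MVP) were chosen after their values were seen. CTGF, a secreted matrix protein induced by mechanical signals, had a mean of 33.998 ± 50.9 TPM in live HepG2-labelled cells and 1.11 ± 2.73 in fixed ones, with medians of 13.99 and 0. In HCT-116 cells it had 2.63 ± 7.94 alive and 1.16 ± 4.66 fixed. The difference went from 3.27 to -0.03. RCAN1, an inhibitor of calcineurin, had 8.69 TPM alive and 2.28 fixed in HepG2-labelled cells, and its difference went from 2.39 to 0.71. On the HCT-116 side, MVP (the major vault protein) had 38.6 TPM alive and 6.51 fixed.

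CDKN1A, the p21 inhibitor of cyclin-dependent kinases, had closer levels in fixed cells on both sides. Its mean in HepG2-labelled cells was 18.3 ± 30.8 TPM alive and 64.9 ± 103.04 fixed. In HCT-116 cells it was 112.2 ± 221 TPM alive and 77.7 ± 191.1 fixed. The medians were closer, at 8.88 and 25.9 TPM in HepG2-labelled cells and 26.6 and 22.2 in HCT-116 cells. A fixed HepG2-labelled cell was above a fixed HCT-116 cell in 51.6% of all pairs of cells. CHCHD10, a mitochondrial protein, likewise went from 7.34 to 20.8 TPM in HepG2-labelled cells and from 62.1 to 38.5 in HCT-116 cells, with a difference of -2.92 alive and -0.86 fixed. SPDYE16 was another loss on the HepG2 side, at 11.2 TPM alive and 1.00 fixed.

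Other genes narrowed but kept a direction. CTSD, the lysosomal protease cathepsin D, had 1273 ± 1169 TPM in live and 212 ± 249 in fixed HepG2-labelled cells, and 68.7 ± 31.6 and 26.98 ± 17.9 in HCT-116 cells. Its difference of 4.19 alive was 2.93 fixed, still 4-fold. The chemokine CXCL12 (56.7 alive and 20.2 TPM fixed in HepG2-labelled cells), WISP2 (50.4 and 19.7), SCUBE2 (18.1 and 6.96), TGFB2 (11.5 and 3.67) and DEGS2 (46.6 and 23.3) also stayed past 4-fold. Each had an SD over cells above its mean in fixed cells. NPNT, a matrix protein, ended under 4-fold at 1.67.

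On the HCT-116 side STMN3, a microtubule regulator, had 25.7 ± 16.5 TPM alive and 4.66 ± 5.14 fixed, and its difference went from -3.10 to -1.24. The neurotensin receptor NTSR1 had 24.6 ± 19.8 and 5.15 ± 5.02 TPM and stayed apart at -2.59. NPM3, a histone chaperone, narrowed from -3.06 to -1.22, with 5.08 TPM alive and 15.3 fixed in HepG2-labelled cells. SERPINB5 and the stress gene DDIT4 were also higher in fixed than in live HepG2-labelled cells (4.45 against 0.19 and 47.2 against 17.5 TPM). FBXO2 stayed apart at -3.32. SNAR-A1 and SNAR-A2, near-identical small RNAs with the same values, had a live mean of 19.1 TPM in HCT-116 cells whose highest cell held 1559 TPM and whose median was 0.01.

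FOS and JUN, which answer to stimulation within minutes, had lower means after fixation on both sides. FOS had 539 TPM in live and 19.5 in fixed HepG2-labelled cells, and 127.2 and 7.89 TPM in HCT-116 cells. Its difference of 2.07 alive was 1.21 fixed. JUN had 22.4 and 1.43 TPM, and 7.98 and 0.52 TPM. ATF3 became a line gene in fixed cells, at -2.35 against -0.65, with 5.47 TPM alive and 0.90 fixed in HepG2-labelled cells and 9.17 and 8.74 in HCT-116 cells.

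Of the 1086 line genes of fixed cells, 43 had been under 2-fold in live cells, and 31 of these were small RNA. Among genes past 4-fold in fixed but not in live cells, the largest gains on the HCT-116 side by the naming rule were NT5E, SH3KBP1, DDIT3, CAV1 and ANXA6, all of them over 2-fold apart in live cells. NT5E, the ectonucleotidase CD73, had 34.3 ± 33.8 TPM in fixed HCT-116 and 3.06 ± 7.10 in fixed HepG2-labelled cells (25.7 and 9.23 alive), so its difference went from -1.39 to -3.12. DDIT3, a stress-induced factor, had 131.8 ± 266 TPM fixed and 50.2 ± 117.9 alive in HCT-116 cells, with medians of 39.6 and 16.8. CAV1, the coat protein of caveolae, went from -1.27 to -2.28. On the HepG2 side the rule named only SNAR copies: SNAR-B1 and SNAR-B2 (72.8 ± 146.5 against 6.81 ± 18.015 TPM fixed) and SNAR-A4, SNAR-A5 and SNAR-A6 (12.95 ± 9.06 against 2.39 ± 4.09). Copies within each set had the same values, and their split is uncertain. Protein-coding genes under 2-fold alive and past 4-fold fixed included PPDPF (116.4 against 17.9 TPM fixed, 37.7 against 21.9 alive) and TP53INP1 (12.7 against 1.07 fixed, 3.52 against 1.38 alive), which were named after their values were seen.

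Line genes that narrowed on the HCT-116 side were richer in G and C. Transcript length and GC content came from the GENCODE release 44 representative transcript, with small RNA left out. The 394 HCT-116 genes that stayed apart had a median GC content of 49.4% (quartiles 43.1 to 57.3). The 82 that narrowed had 57.5% (49.3 to 62.2) and the 9 that were lost 61.3%. On the HepG2 side the medians were 47.3% for 430 genes apart and 49.99% for 100 narrowed. Median length differed less, at 2304 bases for apart and 2374 for narrowed HCT-116 genes, and 2650 and 3028 for HepG2-labelled genes.

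The change from live to fixed was also read across all genes in 5 groups of equal size by GC content. In the group of lowest GC content (median 38.004%) the median change from live to fixed was 0.28 in HepG2-labelled cells and 0.33 in HCT-116 cells (log2). In the group of highest GC content (median 60.9%) it was -0.22 and -0.37. The share of HCT-116 line genes that stayed apart was, from lowest to highest GC content, 88.9%, 95.1%, 85.4%, 81.7% and 65.9%. For HepG2-labelled genes it was 84.6%, 83%, 79.1%, 75% and 76.7%, and neither order was steady. Ribosomal RNA also differed between live and fixed cells, as given above, and its part in these values was not tested.

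**Figure D5:**
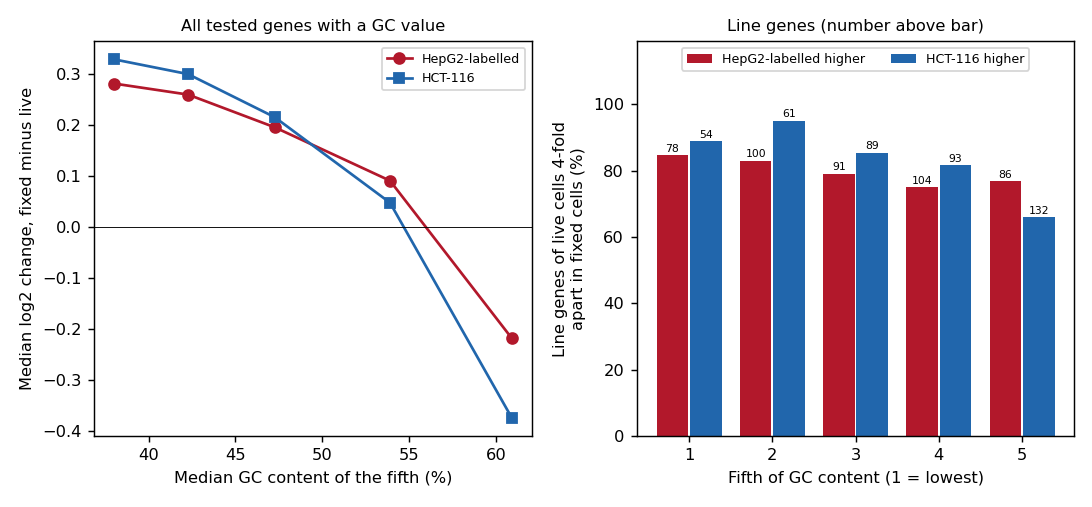
Left, median log2 change from live to fixed in each line over 5 groups of genes by GC content (horizontal axis, median GC in percent). It runs from 0.28 and 0.33 at the lowest GC to -0.22 and -0.37 at the highest. Right, percent of live line genes still 4-fold apart in fixed cells in the same 5 groups, with the number of genes above each bar, where HCT-116 genes of the highest group are lowest at 65.9%.

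The median line difference also varied by chromosome. Genes on chromosome 14 had a median difference of 0.53 in fixed and 0.59 in live cells (292 genes), and those on chromosome X 0.39 and 0.40 (261 genes). Chromosome 18 had -0.57 and -0.45 (96 genes), chromosome 4 had -0.44 and -0.41 (268 genes) and chromosome 22 had -0.36 and -0.40 (181 genes). Chromosome 21 had 0.02 in fixed and 0.23 in live cells (75 genes). The share of genes 4-fold higher in fixed HepG2-labelled cells followed the medians in part. It was low on chromosomes 18 (4.17%), 4 (3.73%) and 22 (3.31%) and 8.22% on chromosome 14. It was highest on chromosomes 21 (10.7%) and 20 (9.58%), whose medians were near that of all genes.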

How the data were processed

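Single cells of both lines, live or fixed in methanol, were sequenced by Smart-seq2. The deposited gene tables give TPM per cell, which the authors summed from transcripts, 1 table per line with its own gene list. The submitters' processing notes name FastQC, kallisto 0.46.0 and GRCh38. The deposited transcript tables hold CPM in effect, and total reads per cell were recovered from the steps of these values.

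Columns were mapped to line and treatment by name only, since column numbers do not match sample titles. Of 186 labelled fixed cells, 175 had a column, and 1 was left out with the live column equal to it in every gene. Group means of TPM were compared as log2 with a pseudocount of 1 TPM, which understates differences of low genes. Genes needed a mean of 5 TPM in 1 of 4 groups, and 4-fold or more was called. Named genes were GATA3, ESR1 and XBP1, the 4 highest members of each list, the 10 largest and 10 most narrowed differences and the 5 largest gains per direction, and any reversal. All but the first needed a mean of 10 TPM and detection in 50% of cells. Names starting LOC, LINC, MIR, SNOR, SCARNA, RNU or RNA were passed over. Other genes were named after their values were seen. The members and lists were chosen with earlier results of these data known. Shares of cells carry exact 95% intervals (Clopper-Pearson), which hold counting error alone. The procedure was tested on simulated data. Python 3.11.15, pandas 2.3.3 and scipy 1.17.1 were used. Alternatives changed the pseudocount, filter, scaling, summary and cells. Some gene names in the tables had been turned into dates and were not named.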

Additional observations from a re-analysis of the deposited data

Results flagged for a closer look

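The direction of the line difference turned between live and fixed cells for 6 genes, each 4-fold or more apart in live cells and 2-fold or more the other way in fixed cells. All were small or ribosomal RNA names, and the difference between treatments was not tested, since the cells cannot be assigned to replicates.

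Genes listed in 1 table only had no place in the comparison, but some were high in fixed cells. Among genes of the HepG2 table alone, 45 had a mean of 10 TPM or more in fixed cells, led by TFF1, an estrogen-induced trefoil peptide, at 3586 TPM fixed and 2066 alive. Among those of the HCT-116 table alone, 27 did, led by GSTP1, a glutathione transferase, at 640 TPM fixed and 510 alive. A gene that is listed in only 1 table has no measured value in the other line, so no fold is given.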

How the results depend on the processing

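All nearest-cell shares stayed at 100% under the 4 alternatives tried for them. The counts of line genes in each direction and of genes that stayed apart stayed within 1.5 times under every alternative but 1: medians over cells gave 949 genes higher in fixed HepG2-labelled cells, or 63.9% of all called against 52.9% with means. The small classes moved more. Lost genes were 2.86% of live line genes with the settings of the report, 1.78% with detection in 50% of cells, 4.59% without ribosomal RNA, 10.5% with medians and 1.57% without small and ribosomal RNA, the last chosen after seeing the data. Reversed genes numbered 14 with a pseudocount of 0.1, 1 with detection in 50% of cells, 0 with means of log2(TPM + 1), 2 with medians and 0 without small RNA. The causes were not tested. Leaving out ribosomal RNA moved the median live difference to -0.12. Of the named genes 4-fold or more apart in fixed cells, none changed direction. A change of direction was not counted for smaller differences. CDKN1A, for example, was lower in fixed HepG2-labelled cells by means and higher by medians. Of all named genes, 36 moved by more than 1 SD over cells in at least 1 alternative. Pairing cells on total reads kept 46 cells per fixed line and called 578 and 571 genes.

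No paired analysis was possible because the columns cannot be assigned to the HepG2 replicates, their numbers do not match the numbers in the sample titles, and no result comes from a test.

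Median total reads of fixed cells were 1.8 and 2 in units of 1e6, which limits what can be said of genes of a few TPM, and fewer cells with a gene and less RNA per cell cannot be told apart in group means.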

Other observations

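Some products of HepG2-labelled cells listed in the HepG2 table only were higher in fixed than in live cells, with a wide spread. CEACAM6, an adhesion protein, had 98.6 ± 278 TPM fixed and 6.28 ± 30.5 alive, with medians of 0.67 and 0. MSMB had 111.3 ± 280 and 30.2 ± 110 TPM, and the calmodulin-like CALML5 had 62.1 ± 136.6 and 9.32 ± 19.2 TPM. SPINK1, a trypsin inhibitor listed in both tables, had a fixed mean of 26.8 ± 162.7 TPM, a median of 0 and a highest cell of 1390 TPM, against 0.61 alive. CEACAM5 had a fixed mean of 25.04 ± 57.4 TPM but a median of 0.49, and its line difference of 4.62 was 0.58 when medians were used. These genes were named after their values were seen, except CEACAM5.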
